A study of Mus musculus with 15 samples.

Results

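The cell cycle genes described here are 52 mouse genes chosen from a list, of which 51 had a value in the colon arrays, out of 19076 genes measured in all. They comprised 29 genes of mitosis, 19 genes of G1 and DNA replication and 3 transcription factors of the cell cycle. They were given by gene symbol, and *Ccnb1*, a cyclin of mitosis, had no feature on the array that listed it alone. Colons were compared between 3 Il10-/- mice at 7 weeks of age, 4 C57 mice at 7 weeks, 4 Il10-/- mice at 12 weeks and 4 C57 mice at 12 weeks, with 1 mouse per array. The Il10-/- mice carried the targeted Il10 allele tm1Cgn on a C57BL/6J background, the controls were C57BL/6J, and Il10-/- mice lack a cytokine that restrains responses to gut bacteria and develop colitis. Every mouse of both genotypes was male, was housed alone, ate the AIN-76A diet and was dosed by mouth with Enterococcus faecalis, Enterococcus faecium and an intestinal flora. The Il10-/- mice at 7 weeks were those without colitis by histology, since inflamed mice of that age were left out by the study, whereas the Il10-/- mice at 12 weeks had moderate colitis and the C57 mice had none. RNA came from the whole thickness of the colon, so that fewer dividing cells and less RNA per dividing cell cannot be told apart.

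In the colon, epithelial cells divide in the lower part of the crypts and stop dividing as they move up towards the surface. A dividing cell commits itself in G1 through cyclin D, loads the helicase onto replication origins, copies its DNA in S phase with nucleotides made by enzymes such as ribonucleotide reductase, and then separates the copies on a spindle in mitosis. Many genes of S phase are switched on by E2F factors, and many genes of mitosis are transcribed later, in G2, through CHR and CCAAT promoter elements and the factors B-Myb (Mybl2) and Foxm1. Dividing immune and stromal cells use the same genes.

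Each value was the log2 ratio of colon RNA over a pooled reference of several tissues on the same array, so that values of one gene can be compared between mice and values of different genes cannot. Arrays held 41687 to 42147 values, with medians of −0.01 to −0.0021 and SDs of 0.44 to 0.51. Liver genes, which the pool contains, lay far below 0 in every colon, with list means of −3.38 to −2.63, while the colonocyte list lay between −0.05 and 0.93. Over all mice, 41 of the 51 genes were above the pool and 10 below it. Signal intensities were not used here, so that a gene near the detection limit cannot be told apart from one that is level with the pool. A gene was called at a fold change of 1.5 or more with a Benjamini-Hochberg adjusted P under 0.05 over all 19076 genes (limma). Differences are Il10-/- minus C57 on the log2 scale, with SE.

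**Figure D1:**
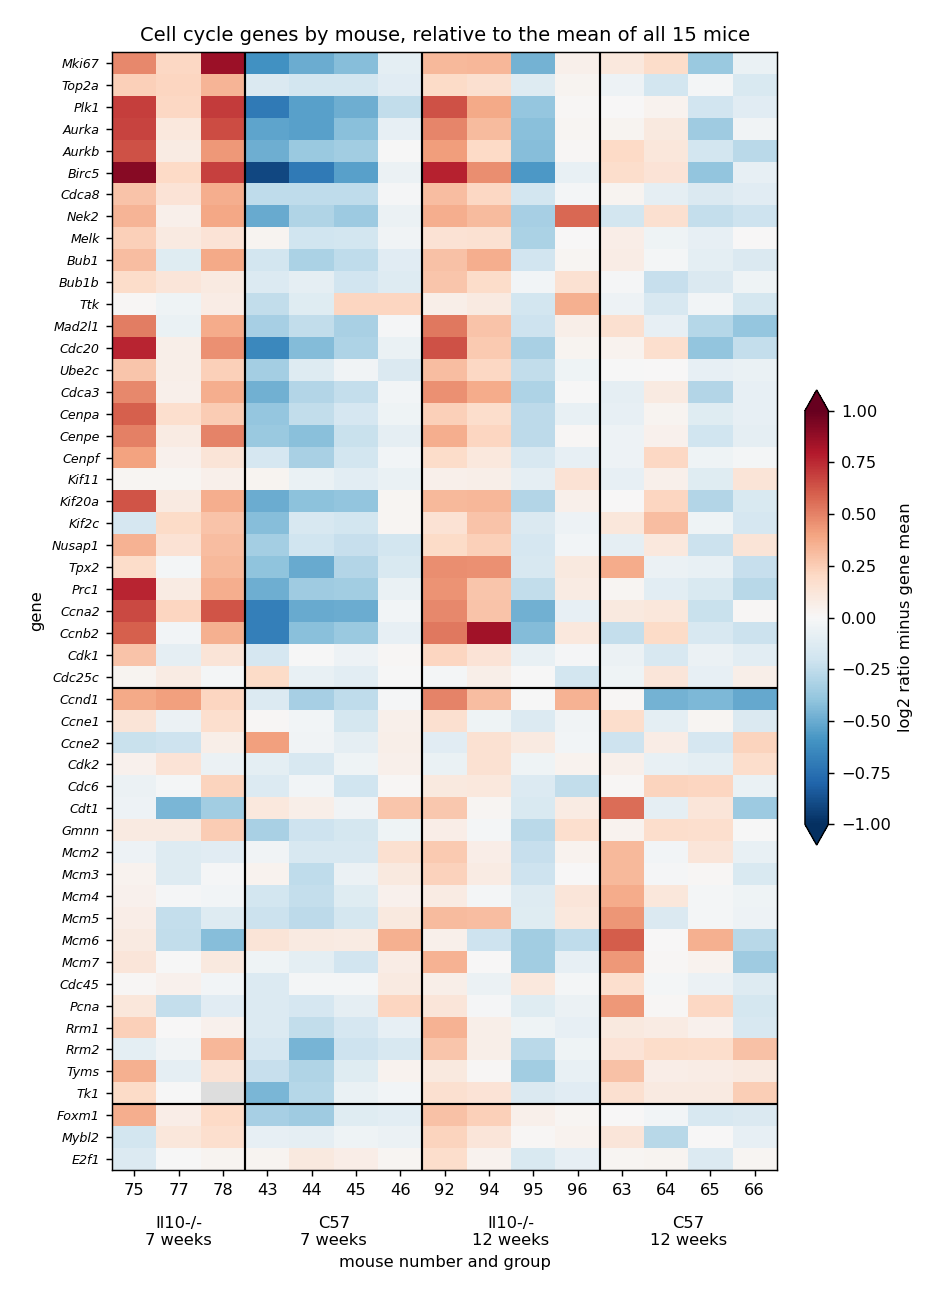
Log2 ratio of 51 genes (rows) in 15 mice (columns, by mouse number and group), each minus the mean of that gene over all mice, with red above and blue below that mean. Lines separate groups of mice and the blocks of mitosis, replication and transcription factor genes, and grey marks a missing value. The mitosis block is mostly red in the Il10-/- mice at 7 weeks and in mice 92 and 94, and blue in mice 43, 44, 45 and 95, while the replication block is paler.

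At 7 weeks, before colitis, 10 genes of mitosis were higher in the colon of Il10-/- mice than of C57 mice, and no gene of DNA replication was called. Of the 51 genes, 10 rose and none fell, against 1.4% of all genes tested called higher and 1.01% called lower. All 10 were counted as genes of mitosis (10 of 29), among them *Ccna2*, a cyclin of S phase and G2. None of the 19 genes counted as replication genes was called. The 10 called genes were 1.56- to 2.22-fold higher in Il10-/- mice. All 29 mitosis genes had a positive difference, against 46.5% of all genes, with a median of 0.51. The median was 0.11 over the replication genes, 14 of 19 positive, and −0.01 over all genes. In 22 of the 29 mitosis genes and 5 of the 19 replication genes all Il10-/- mice with a value lay above all 4 C57 mice. The share was 10.8% over all genes. Of these 5, *Tk1* had no value for mouse 78. The difference in counts between mitosis and replication genes was not tested. The count of called genes rested on single mice, being 3 without mouse 75, 4 without mouse 78 and 6 without mouse 43. It was 13 without mouse 46 or mouse 77, and all of these calls were higher. The share of all genes called without each mouse is not given here. Values per mouse follow the order of mice 75, 77 and 78 for Il10-/- and 43, 44, 45 and 46 for C57.

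**Figure D2:**
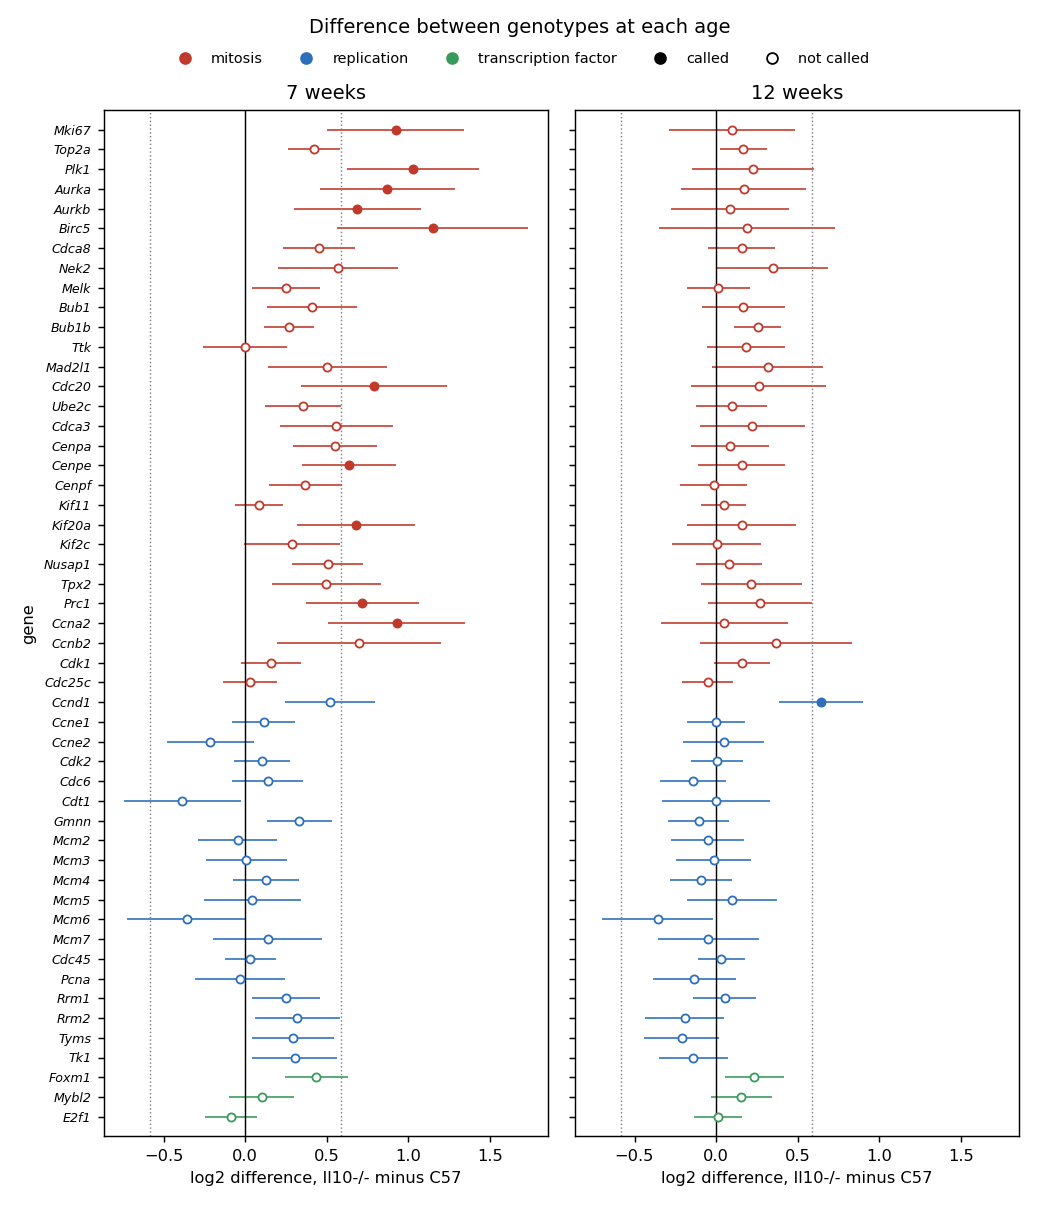
Log2 difference, Il10-/- minus C57, of each gene at 7 weeks (left) and 12 weeks (right), with its 95% confidence interval from limma. Filled points were called, colours give the class of gene, and dotted lines mark a fold of 1.5. At 7 weeks 10 mitosis genes are filled, and at 12 weeks *Ccnd1* alone.

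Of the mitotic kinases *Plk1*, *Aurka*, *Nek2* and *Melk*, 2 were called at 7 weeks. *Plk1*, polo-like kinase, which matures the centrosomes and builds the spindle, had log2 ratios of 0.91, 0.43 and 0.93 in Il10-/- mice, against −0.49, −0.32, −0.26 and −0.02 in C57 mice. Every Il10-/- mouse was above every C57 mouse, and the difference was 1.03 ± 0.19 (SE, adjusted P = 0.00306). *Plk1* was still called when any one mouse was left out. *Aurka*, the Aurora kinase of the spindle poles, measured 0.75, 0.18 and 0.72 in Il10-/- mice and −0.46, −0.48, −0.35 and −0.01 in C57 mice. The groups did not overlap, although mouse 77 lay only a little above mouse 46, and the difference was 0.87 ± 0.19 (SE, adjusted P = 0.0108). *Nek2*, which separates the centrosomes, had 0.62, 0.33 and 0.67 in Il10-/- mice and −0.22, −0.02, −0.08 and 0.22 in C57 mice. It also did not overlap but was not called at 0.57 ± 0.17 (SE, adjusted P = 0.0562). *Melk*, a kinase of dividing cells, had 0.43, 0.28 and 0.33 in Il10-/- mice and 0.22, −0.01, 0.006 and 0.15 in C57 mice and was not called, at 0.25 ± 0.10 (SE, adjusted P = 0.138).

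The chromosomal passenger complex, which corrects faulty attachments of chromosomes to the spindle and later sits at the midbody, had the largest difference of all 51 genes. *Birc5* (survivin), a subunit of it, had 1.03, 0.33 and 0.81 in Il10-/- mice, against −0.78, −0.58, −0.41 and 0.07 in C57 mice, a difference of 1.15 ± 0.27 (SE, adjusted P = 0.0165). The Il10-/- mice ranged above all C57 mice, and mouse 46 was the highest of the C57 group. *Aurkb*, its kinase, had 0.89, 0.33 and 0.68 in Il10-/- mice and −0.24, −0.12, −0.10 and 0.24 in C57 mice, a difference of 0.69 ± 0.18 (SE, adjusted P = 0.0294). *Cdca8* (borealin) had 0.41, 0.26 and 0.49 in Il10-/- mice and −0.13, −0.13, −0.13 and 0.11 in C57 mice. Its groups did not overlap and its adjusted P was under 0.05, but at 0.45 ± 0.10 (SE, adjusted P = 0.0124) it was below the fold threshold.

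*Mki67*, the antigen Ki-67 that coats mitotic chromosomes and marks dividing cells, had 1.09, 0.82 and 1.47 in Il10-/- mice, against 0.0061, 0.11, 0.19 and 0.52 in C57 mice. Mouse 78 was the highest of all mice for *Mki67*, and the difference was 0.92 ± 0.20 (SE, adjusted P = 0.00822). *Ccna2*, the cyclin of S phase and G2, had 1.08, 0.63 and 1.05 in Il10-/- mice and −0.26, −0.09, −0.07 and 0.39 in C57 mice, a difference of 0.93 ± 0.20 (SE, adjusted P = 0.00804). All Il10-/- mice were above all C57 mice for both. *Ccnb2*, a B-type cyclin, had 0.65, 0.03 and 0.41 in Il10-/- mice and −0.63, −0.36, −0.32 and −0.03 in C57 mice. It passed the fold threshold without the P threshold, at 0.70 ± 0.24 (SE, adjusted P = 0.086). *Cdk1*, the kinase that these cyclins switch on, had a difference of 0.16 ± 0.09 (SE, adjusted P = 0.318), and *Cdc25c*, the phosphatase that activates it, of 0.03 ± 0.08 (SE, adjusted P = 0.883). The groups of both overlapped.

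Genes of the spindle, of chromosome attachment and of the exit from mitosis were also called. *Prc1*, which bundles microtubules of the central spindle, had 1.07, 0.39 and 0.66 in Il10-/- mice and −0.19, −0.05, −0.05 and 0.23 in C57 mice, a difference of 0.72 ± 0.16 (SE, adjusted P = 0.0119). *Kif20a*, a motor of the central spindle needed for cytokinesis, had 0.53, −0.0094 and 0.26 in Il10-/- mice and −0.59, −0.50, −0.49 and −0.08 in C57 mice, a difference of 0.68 ± 0.17 (SE, adjusted P = 0.0214). In both genes mouse 75 was the highest and mouse 77 the lowest of the Il10-/- mice, and no C57 mouse reached mouse 77. *Cenpe*, a kinetochore motor, had 0.64, 0.21 and 0.62 in Il10-/- mice and −0.24, −0.29, −0.09 and 0.04 in C57 mice, a difference of 0.64 ± 0.14 (SE, adjusted P = 0.00821). *Cdc20*, which activates the anaphase promoting complex, had 0.53, −0.17 and 0.23 in Il10-/- mice and −0.88, −0.67, −0.54 and −0.30 in C57 mice, a difference of 0.79 ± 0.21 (SE, adjusted P = 0.0286). The groups did not overlap in either gene, with mouse 77 next to mouse 46 for *Cdc20*.

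A further 10 genes had an adjusted P under 0.05 at 7 weeks below the fold threshold, all of them higher in Il10-/- mice, with differences of 0.27 to 0.56, so that 20 of the 51 genes passed without that threshold, against 4.12% of all genes. Mitosis accounted for 7 of these, *Top2a*, *Cdca8*, *Bub1b*, *Cdca3*, *Cenpa*, *Cenpf* and *Nusap1*, and the other 3 were *Ccnd1*, *Gmnn* and *Foxm1*, described further on. *Top2a*, the topoisomerase that untangles sister chromatids, had 0.22, 0.19 and 0.31 in Il10-/- mice and −0.17, −0.21, −0.21 and −0.14 in C57 mice, a difference of 0.42 ± 0.07 (SE, adjusted P = 0.00209), the lowest adjusted P of all 51 genes. The C57 mice were close together and all below the Il10-/- mice. *Cenpa*, the histone that marks centromeres, had 0.60, 0.16 and 0.25 in Il10-/- mice and −0.39, −0.25, −0.17 and −0.05 in C57 mice, a difference of 0.55 ± 0.12 (SE, adjusted P = 0.0103). *Nusap1*, a spindle microtubule protein, had 0.55, 0.34 and 0.50 in Il10-/- mice and −0.15, −0.003, −0.04 and 0.01 in C57 mice, a difference of 0.51 ± 0.10 (SE, adjusted P = 0.00612). Neither gene overlapped between the genotypes. *Cdca3*, a trigger of mitotic entry, had 0.80, 0.37 and 0.68 in Il10-/- mice and −0.16, 0.03, 0.08 and 0.29 in C57 mice (0.56 ± 0.16 SE, adjusted P = 0.0469). *Cenpf*, a kinetochore protein, had 0.46, 0.10 and 0.19 in Il10-/- mice and −0.11, −0.27, −0.13 and 0.03 in C57 mice (0.37 ± 0.10 SE, adjusted P = 0.0393). *Bub1b*, a spindle checkpoint kinase, had 0.33, 0.26 and 0.23 in Il10-/- mice and 0.0066, 0.05, −0.05 and 0.01 in C57 mice (0.27 ± 0.07 SE, adjusted P = 0.032), with no mouse of one genotype inside the range of the other.

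The rest of the mitosis genes were not called and had adjusted P of 0.05 or more. *Tpx2*, the activator of Aurora A, had 0.35, 0.14 and 0.49 in Il10-/- mice and −0.24, −0.34, −0.13 and 0.01 in C57 mice (0.50 ± 0.16 SE, adjusted P = 0.0656), and *Ube2c*, the ubiquitin-conjugating enzyme of the anaphase promoting complex, had 0.56, 0.34 and 0.52 in Il10-/- mice and −0.06, 0.15, 0.24 and 0.14 in C57 mice (0.35 ± 0.11 SE, adjusted P = 0.0623). Both kept the genotypes apart. In the spindle checkpoint, which holds anaphase until all chromosomes are attached, *Bub1* had a difference of 0.41 ± 0.13 (SE, adjusted P = 0.067), *Mad2l1* of 0.50 ± 0.17 (SE, adjusted P = 0.0885) and *Ttk* of 0.00094 ± 0.12 (SE, adjusted P = 0.999). The motor *Kif11*, which pushes the spindle poles apart, differed by 0.08 ± 0.07 (SE, adjusted P = 0.548), and *Kif2c*, which shortens microtubules, by 0.29 ± 0.14 (SE, adjusted P = 0.249). The genotypes overlapped in all 5 of these genes, and the 95% interval of *Ttk* ran from −0.26 to 0.26.

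Several genes had features that disagreed with each other. The 51 genes were read by 80 features, 27 by a single one, 19 by 2 and 5 by 3, and gene values were the means of a gene's features. At 7 weeks 21 of the 80 features were called higher (26.3%, against 1.3% of all single features) and none lower. They belonged to 18 genes, all of mitosis, and 8 of those genes, *Cdca3*, *Cdca8*, *Cenpa*, *Cenpf*, *Melk*, *Nusap1*, *Top2a* and *Ube2c*, were not called on their mean. *Ube2c* had a feature with a difference of 0.86 and another with −0.15, and *Nusap1* had 0.87 and 0.14. *Cdca8* had 0.83, 0.66 and −0.13, and *Cenpe*, which was called on its mean, 0.27, 0.52 and 1.11. In *Ube2c*, *Nusap1*, *Melk*, *Cenpa* and *Cdca8* the features annotated with a RefSeq transcript were called and the feature annotated with another cDNA was not, whereas in *Cenpe* the opposite held. Features annotated with the same RefSeq transcript also disagreed, with one called and the other not. They had 0.95 and 0.17 in *Cdca3*, 0.59 and 0.15 in *Cenpf*, and 0.73 and 0.39 in *Top2a*. The features of *Mki67*, 0.86 and 0.98, and of *Kif20a*, 0.66 and 0.70, were all called. Those of *Mki67* and the higher one of *Kif20a* were annotated with another accession. The kind of accession therefore did not separate called from uncalled features throughout. The means of *Ube2c*, *Nusap1*, *Cdca8* and *Melk* therefore stand for features with unlike values. With the RefSeq transcript features alone, where a gene had one, 14 of the 51 genes were called higher at 7 weeks. That choice was made after the features had been seen. With the most variable feature of each gene 18 were called higher. The share of all genes called under either setting is not given here.

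**Figure D3:**
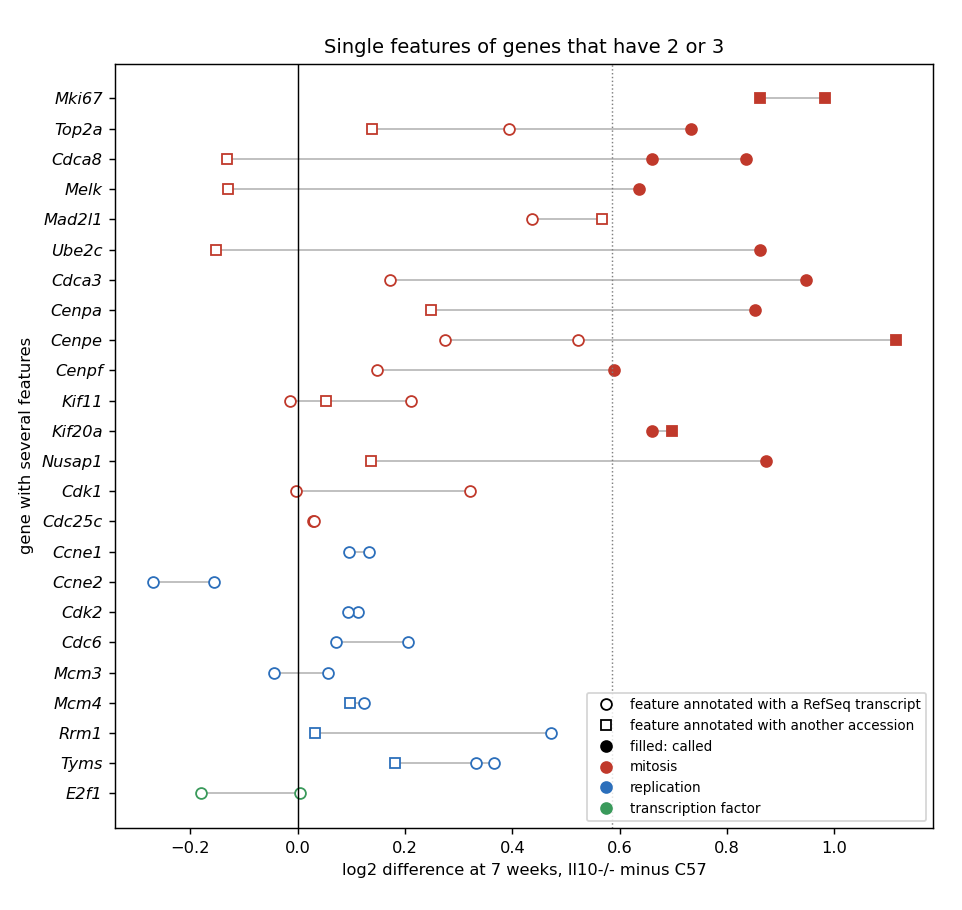
Log2 difference at 7 weeks, Il10-/- minus C57, of each feature of the 24 genes that have 2 or 3 features (rows), joined by a line within a gene. Circles are features annotated with a RefSeq transcript and squares features with another accession, filled where called, and the dotted line marks a fold of 1.5. Features of *Ube2c* lie at 0.86 and −0.15, while those of *Kif20a* lie side by side.

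No gene that copies DNA was called at 7 weeks. The 6 subunits of the replicative helicase, *Mcm2* to *Mcm7*, had differences of −0.36 to 0.14, 4 of them positive, and their 95% intervals together ran from −0.72 to 0.47. *Mcm7* had 0.62, 0.50 and 0.60 in Il10-/- mice and 0.45, 0.40, 0.31 and 0.57 in C57 mice, and *Mcm6*, the subunit with the lowest difference, had 0.53, 0.19 and 0.01 in Il10-/- mice and 0.57, 0.53, 0.52 and 0.79 in C57 mice (−0.36 ± 0.17 SE, adjusted P = 0.247). The genotypes overlapped in all 6. *Pcna*, the sliding clamp of the DNA polymerases, had 0.34, −0.0086 and 0.12 in Il10-/- mice and 0.09, 0.06, 0.14 and 0.44 in C57 mice, with a difference of −0.03 ± 0.13 (SE, adjusted P = 0.924) and a 95% interval of −0.31 to 0.24. *Cdc45*, which joins the helicase when origins fire, differed by 0.03 ± 0.07 (SE, adjusted P = 0.864). The intervals of *Pcna*, *Cdc45* and of *Mcm2* to *Mcm7* did not reach the size of the *Plk1*, *Birc5*, *Mki67* or *Ccna2* difference.

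The genes that license origins, by loading the helicase or blocking its loading, had differences of both signs. *Cdt1* had 0.41, 0.0097 and 0.12 in Il10-/- mice and 0.57, 0.52, 0.43 and 0.74 in C57 mice (−0.39 ± 0.17 SE, adjusted P = 0.192). It was the only one of the 51 genes with all Il10-/- mice below all C57 mice, as in 12.4% of all genes, and it was not called. *Gmnn* (geminin), the inhibitor that binds Cdt1 after origins have fired, had 0.52, 0.52 and 0.68 in Il10-/- mice and 0.10, 0.22, 0.25 and 0.38 in C57 mice (0.33 ± 0.09 SE, adjusted P = 0.0415), below the fold threshold and with no overlap. *Cdc6* differed by 0.14 ± 0.10 (SE, adjusted P = 0.492). The genes that supply deoxynucleotides had small positive differences, 0.25 to 0.32, none of them called. *Rrm2*, a subunit of ribonucleotide reductase, had −2.36, −2.30 and −1.93 in Il10-/- mice and −2.43, −2.73, −2.47 and −2.43 in C57 mice (0.32 ± 0.12 SE, adjusted P = 0.132). *Rrm1*, the other subunit, had −0.07, −0.31 and −0.27 in Il10-/- mice and −0.44, −0.56, −0.47 and −0.39 in C57 mice (0.25 ± 0.10 SE, adjusted P = 0.137), and its 2 features had differences of 0.03 and 0.47. *Tk1*, thymidine kinase, had 0.65 and 0.45 in Il10-/- mice 75 and 77, with no value for mouse 78, and −0.0022, 0.17, 0.39 and 0.43 in C57 mice (0.30 ± 0.12 SE, adjusted P = 0.153). The genotypes did not overlap in *Rrm1*, *Rrm2* and *Tk1*. *Tyms*, thymidylate synthase, overlapped between them (0.29 ± 0.12 SE, adjusted P = 0.15).

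Among the genes that start a cycle, *Ccnd1* (cyclin D1), which carries growth signals into G1, was 1 of 2 genes, with *Bub1b*, whose adjusted P was under 0.05 at both ages. At 7 weeks it had 0.71, 0.74 and 0.54 in Il10-/- mice and 0.19, 0.00073, 0.07 and 0.32 in C57 mice, a difference of 0.52 ± 0.13 (SE, adjusted P = 0.0216) that was below the fold threshold. At 12 weeks it had 0.82, 0.64, 0.33 and 0.68 in Il10-/- mice 92, 94, 95 and 96 and 0.34, −0.14, −0.11 and −0.18 in C57 mice 63, 64, 65 and 66. The difference of 0.64 ± 0.12 (SE, adjusted P = 0.00222) was called, although mouse 95 lay a little below mouse 63, and without mouse 92 it was 0.58 (adjusted P = 0.00888), just under the fold threshold. The change of the *Ccnd1* difference with age was 0.13 ± 0.18 (SE, adjusted P = 0.765). *Ccne1*, *Ccne2* and *Cdk2*, the cyclin E pair and its kinase that open S phase, had differences of 0.11, −0.21 and 0.10 at 7 weeks and −0.0015, 0.05 and 0.0066 at 12 weeks, none of them called.

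Of the transcription factors, *Foxm1*, which drives genes of G2 and mitosis, was the one whose groups were apart at both ages. At 7 weeks it had 0.53, 0.24 and 0.37 in Il10-/- mice and −0.16, −0.18, 0.05 and 0.07 in C57 mice (0.44 ± 0.09 SE, adjusted P = 0.00744), below the fold threshold. At 12 weeks it had 0.47, 0.41, 0.23 and 0.19 in Il10-/- mice and 0.18, 0.14, 0.01 and 0.02 in C57 mice (0.23 ± 0.08 SE, adjusted P = 0.104). *Mybl2* differed by 0.10 ± 0.09 (SE, adjusted P = 0.602) at 7 weeks and 0.15 ± 0.09 (SE, adjusted P = 0.318) at 12 weeks, and *E2f1*, an activator of S phase genes, by −0.09 ± 0.08 (SE, adjusted P = 0.558) and 0.01 ± 0.07 (SE, adjusted P = 0.953).

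**Figure D4:**
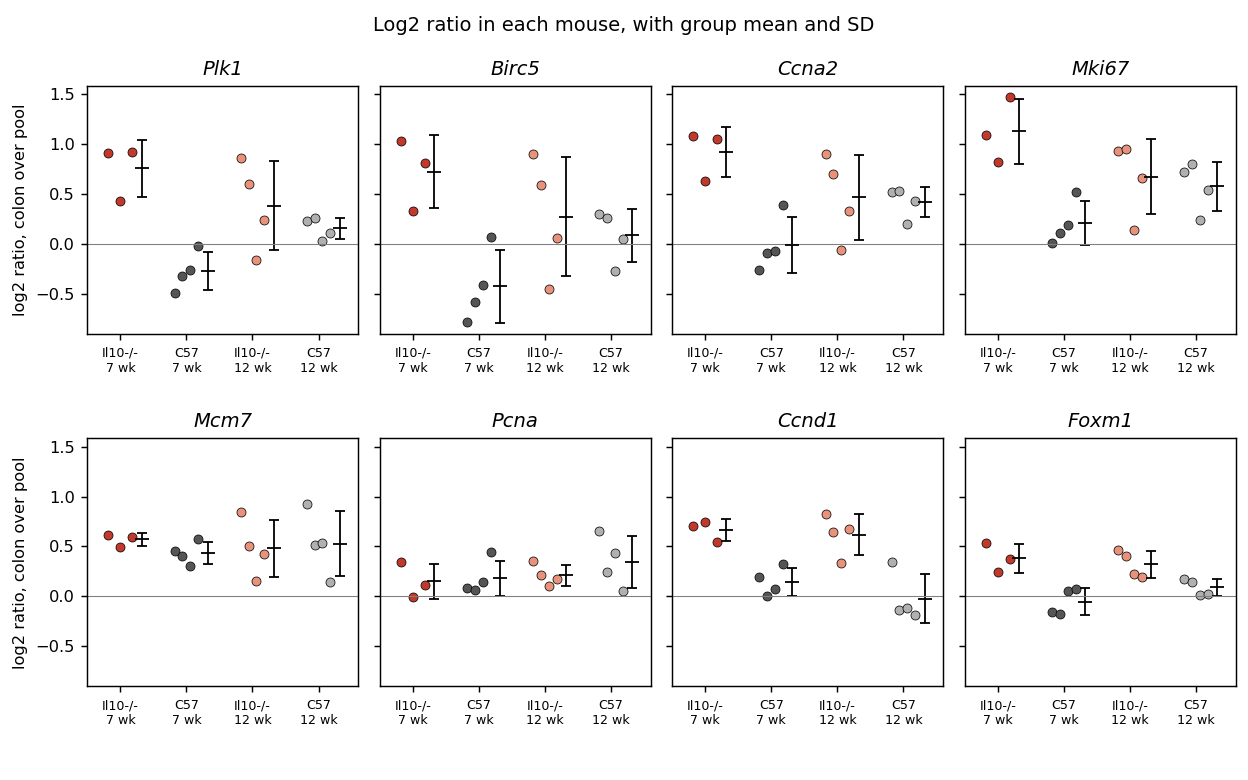
Log2 ratio of colon over pool in each mouse (points) for 4 mitosis genes (top) and for *Mcm7*, *Pcna*, *Ccnd1* and *Foxm1* (bottom), with the group mean and SD beside them (n = 3 for Il10-/- at 7 weeks and 4 for each other group). The Il10-/- and C57 mice at 7 weeks are apart in the top row and in *Ccnd1* and *Foxm1* and overlap in *Mcm7* and *Pcna*, and at 12 weeks the top row overlaps.

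Since 10 genes of mitosis rose together at 7 weeks and no helicase gene was called, the bases before their transcription starts were searched for 3 known promoter elements in RefSeq windows (build GRCm38.p6). Of the 51 genes, 41 had a window, 7 of the 10 called genes among them. The letters searched in the 250 bases before the start, on both strands, were TTTGAA for the CHR element, CCAAT for the CCAAT box and TTTCCCGC or TTTGGCGC for an E2F site, and different elements did not overlap in these windows. CCAAT was found in 19 of 24 mitosis genes (79.2%) and 10 of 15 replication genes (66.7%), against 37.5% of all 27025 genes with a window. TTTGAA was found in 9 of 24 mitosis genes (37.5%) and 2 of 15 replication genes (13.3%), against 18.3% of all genes. The E2F letters were found in 0 of 24 mitosis genes and in 5 of 15 replication genes (33.3%), *Cdc6*, *Cdk2*, *Mcm5*, *Mcm6* and *Mcm7*, against 1.51% of all genes. No test was run on these shares, and a match shows letters and not a bound site. Of the 7 called genes with a window 3, *Cdc20*, *Mki67* and *Prc1*, held CHR letters and 6 held CCAAT, while the window of *Birc5* held none of the letters searched, and 6 mitosis genes that were not called, *Ccnb2*, *Cdk1*, *Kif11*, *Kif2c*, *Top2a* and *Ube2c*, held CHR letters. The windows of *Cdc20* and *Mki67*, chosen as called genes that hold both CHR and CCAAT letters, are set beside that of *Mcm6*, which was not called and holds E2F letters 2 times, with the searched letters on either strand in capitals. They are read 5′ to 3′ on the strand of the gene, from 250 bases before its start to the last base before it, and all 3 genes are on the minus strand.
Cdc20 (chr4:118437344-118437593): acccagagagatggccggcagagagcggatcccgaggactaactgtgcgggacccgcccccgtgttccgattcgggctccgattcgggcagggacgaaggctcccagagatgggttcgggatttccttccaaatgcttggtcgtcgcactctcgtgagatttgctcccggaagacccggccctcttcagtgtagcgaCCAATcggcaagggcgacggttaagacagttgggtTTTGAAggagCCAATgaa
Mki67 (chr7:135716380-135716629): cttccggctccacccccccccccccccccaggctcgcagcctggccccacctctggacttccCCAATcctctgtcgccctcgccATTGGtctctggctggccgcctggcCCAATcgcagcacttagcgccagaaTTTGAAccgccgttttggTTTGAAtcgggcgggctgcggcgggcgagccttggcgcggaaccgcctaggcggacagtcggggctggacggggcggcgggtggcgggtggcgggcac
Mcm6 (chr1:128359706-128359955): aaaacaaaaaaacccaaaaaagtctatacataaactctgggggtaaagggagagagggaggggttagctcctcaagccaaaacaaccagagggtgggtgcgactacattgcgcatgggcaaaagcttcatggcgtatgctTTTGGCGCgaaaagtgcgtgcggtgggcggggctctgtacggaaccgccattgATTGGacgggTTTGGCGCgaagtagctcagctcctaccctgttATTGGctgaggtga
In *Cdc20* the CHR letters began 18 bases before the start and CCAAT letters 53 and 8 bases before it. In *Mki67* CHR letters began 116 and 98 bases before the start and CCAAT letters 188, 166 and 141 bases before it. In *Mcm6* the E2F letters began 110 and 47 bases before the start, with CCAAT letters at 57 and 14 bases and no CHR letters.

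At 12 weeks, with colitis present, no gene of mitosis was called between the genotypes. *Ccnd1* was the only gene called, 1 of 51 higher and none lower, against 1.5% of all genes called higher and 1.02% lower. The median difference was 0.16 over the mitosis genes, 27 of 29 positive, and −0.05 over the replication genes, 6 of 19 positive, against 49.8% of all genes. No mitosis or replication gene kept all Il10-/- mice above all C57 mice, as 6.48% of all genes did, and *Foxm1* was the single gene of the 51 that did. None of the 51 had all Il10-/- mice below all C57 mice, as 7.05% of all genes did. Of the 80 single features 1 was called higher, that of *Ccnd1*, against 1.59% of all features. *Plk1* had 0.86, 0.60, −0.16 and 0.24 in Il10-/- mice and 0.23, 0.26, 0.03 and 0.11 in C57 mice, a difference of 0.23 ± 0.18 (SE, adjusted P = 0.489). *Birc5* had 0.90, 0.59, −0.45 and 0.06 in Il10-/- mice and 0.30, 0.26, −0.27 and 0.05 in C57 mice (0.19 ± 0.25 SE, adjusted P = 0.72). *Mki67* had 0.94, 0.95, 0.14 and 0.66 in Il10-/- mice and 0.72, 0.80, 0.24 and 0.54 in C57 mice (0.10 ± 0.18 SE, adjusted P = 0.812). In all 3 genes mice 92 and 94 were above every C57 mouse and mouse 95 was below every C57 mouse. With no fold threshold 2 of the 51 genes passed, *Ccnd1* and *Bub1b*, against 5.17% of all genes. *Bub1b* had 0.42, 0.32, 0.11 and 0.29 in Il10-/- mice and 0.13, −0.09, −0.0042 and 0.10 in C57 mice (0.25 ± 0.07 SE, adjusted P = 0.0236), with mouse 95 inside the C57 range.

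The change of the genotype difference with age was negative in 27 of 29 mitosis genes, with a median of −0.33, while it was positive in 52.6% of all genes, but was called in none of the 51 genes, against 0.493% of all genes called higher and 0.655% called lower. The lowest adjusted P was that of *Gmnn*, −0.44 ± 0.13 (SE, adjusted P = 0.0903). *Ccna2* changed by −0.88 ± 0.27 (SE, adjusted P = 0.104), *Mki67* by −0.83 ± 0.27 (SE, adjusted P = 0.124) and *Plk1* by −0.80 ± 0.26 (SE, adjusted P = 0.122). At an unadjusted P under 0.05, 16 of the 51 genes had a lower difference at 12 weeks and 0 a higher one (limma), against 8.21% of all genes lower and 8.67% higher, and *Plk1* and *Ccna2* were called when mouse 92 was left out. A fall of the difference between ages was therefore not shown for any single gene with all mice.

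Between 7 and 12 weeks the median difference of the mitosis genes had opposite signs in the 2 genotypes, and no gene was called in either. In Il10-/- mice, 25 of the 29 mitosis genes had a negative difference of 12 minus 7 weeks, with a median of −0.18, while 53.5% of all genes had a positive one, and 0 of the 51 genes was called, against 0.299% of all genes called higher and 0.121% lower (4 genes lower and 0 higher at an unadjusted P under 0.05 in limma, against 5.9% and 7.75% of all genes). In C57 mice, 27 of the 29 had a positive difference, with a median of 0.19, against 50.3% of all genes, and again 0 of the 51 was called, against 0.231% of all genes called higher and 0.173% lower (0 genes lower and 9 higher at an unadjusted P under 0.05 in limma, against 6.27% and 6.9% of all genes). The 2 comparisons across age have no mice in common, but each shares its mice with the genotype comparisons. *Rrm2* had −2.13, −2.08, −2.09 and −1.97 in C57 mice at 12 weeks and −2.43, −2.73, −2.47 and −2.43 in C57 mice at 7 weeks, a difference of 12 minus 7 weeks of 0.45 ± 0.11 (SE, adjusted P = 0.0779), the lowest adjusted P of the 51 genes in this comparison.

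The mice of a group differed among themselves in these genes in a shared way. The mean of the 29 mitosis genes was 0.55, 0.22 and 0.49 in Il10-/- mice 75, 77 and 78 and −0.24, −0.17, −0.12 and 0.08 in C57 mice 43, 44, 45 and 46 at 7 weeks. At 12 weeks it was 0.48, 0.41, −0.12 and 0.18 in Il10-/- mice 92, 94, 95 and 96 and 0.15, 0.18, −0.04 and 0.03 in C57 mice 63, 64, 65 and 66. Mice 92 and 94 were within the range of the Il10-/- mice at 7 weeks. Mouse 95 was level with C57 mouse 45 at 7 weeks, above mice 43 and 44 and below mouse 46. Within its group, mouse 95 was the lowest in 28 of the 29 mitosis genes and in 44 of all 51, mouse 46 the highest in 24 of 29, and mouse 77 the lowest in 25 of 29. Without mouse 95 the median difference of the 51 genes at 12 weeks was 0.18, against 0.08 with it, and the count of called genes stayed at 1. The mean of the 19 replication genes was 0.15, 0.0089 and 0.07 in the Il10-/- mice and −0.02, −0.09, −0.05 and 0.14 in the C57 mice at 7 weeks, and 0.24, 0.13, −0.08 and 0.06 in the Il10-/- mice and 0.30, 0.08, 0.11 and −0.0074 in the C57 mice at 12 weeks. The genotypes overlapped at both ages, and mouse 63 was the highest of all 15 mice.

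**Figure D5:**
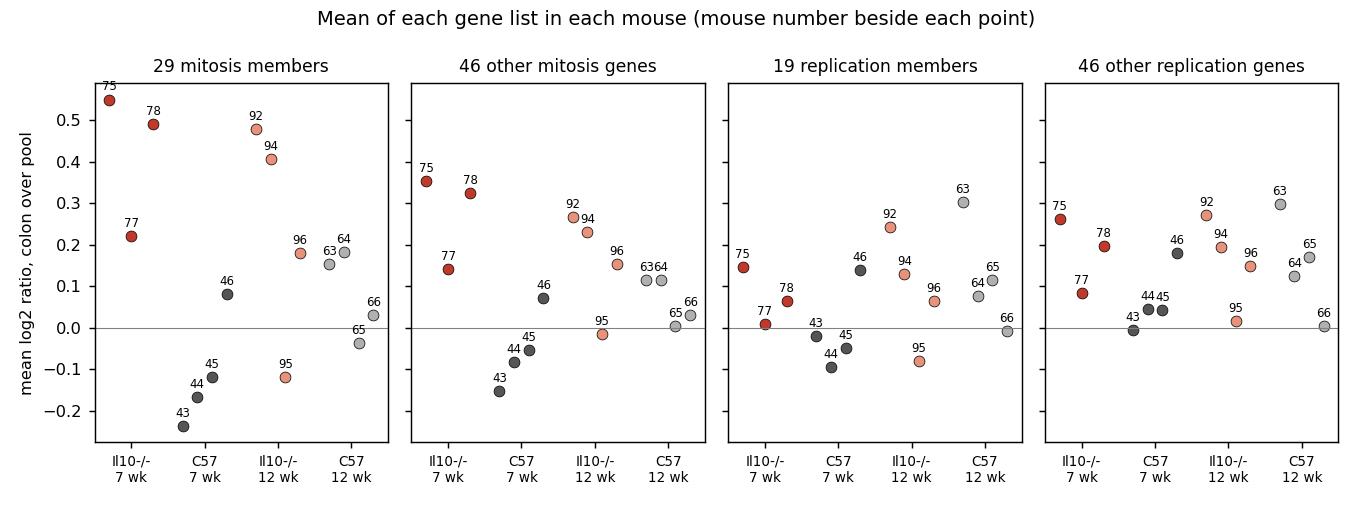
Mean log2 ratio, colon over pool, of each list of genes in each mouse (points, with the mouse number), for the 29 mitosis genes, 46 other mitosis genes, 19 replication genes and 46 other replication genes. In both mitosis lists every Il10-/- mouse at 7 weeks lies above every C57 mouse of that age, while at 12 weeks mouse 95 lies at or below the C57 mice. In both replication lists the genotypes overlap at both ages.

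Other genes of the same processes were counted in lists set by function. These lists were chosen with earlier results of these data known, so that they are not an independent check. Of 48 further genes of mitosis, 46 were measured. At 7 weeks 7 of them rose and none fell, against 1.4% of all genes called higher and 1.01% called lower. Their median difference was 0.30, with 44 of 46 positive, against 46.5% of all genes. *Incenp*, the scaffold of the chromosomal passenger complex, had 1.27, 0.73 and 1.07 in Il10-/- mice and −0.24, −0.15, 0.03 and 0.26 in C57 mice (1.05 ± 0.17 SE, adjusted P = 0.00138). *Kif22*, a chromosome motor, differed by 0.83 ± 0.18 (SE, adjusted P = 0.00832), *Cdca5* (sororin), which protects sister cohesion, by 0.77 ± 0.08 (SE, adjusted P = 2.98e-05), and *Cks1b*, a small subunit of cyclin-dependent kinases, by 0.72 ± 0.18 (SE, adjusted P = 0.0226). The genotypes were apart at 7 weeks in all 4 of these. At 12 weeks 0 of the 46 was called, against 1.5% of all genes called higher and 1.02% lower, and the median was 0.08. Of 48 further genes of replication and S phase, 46 were measured and 0 was called at either age, with medians of 0.10 at 7 weeks and 0.03 at 12 weeks. At 7 weeks 11 of the 46 mitosis genes and 2 of the 46 replication genes had an adjusted P under 0.05 and were higher. Over all genes this share was 4.12%, close to that of the replication genes.

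Of 18 inhibitors of the cycle 17 were measured, and 0 was called at 7 or 12 weeks. Of all genes, 1.4% were called higher and 1.01% lower at 7 weeks, and 1.5% higher and 1.02% lower at 12 weeks. *Cdkn1a* (p21), an inhibitor induced by p53, had 0.87, 0.93 and 1.30 in Il10-/- mice and 0.45, 0.67, 0.45 and 0.36 in C57 mice at 7 weeks, a difference of 0.55 ± 0.11 (SE, adjusted P = 0.00385) below the fold threshold and with no overlap. At 12 weeks its difference was −0.09 ± 0.10 (SE, adjusted P = 0.644). Directions were mixed among the inhibitors at 7 weeks. For example, *Cdkn2b* and *Cdkn1c* were lower in all Il10-/- mice than in all C57 mice, and *Cdkn2d* was higher. The mean of the inhibitor list overlapped, with 0.06 to 0.13 in Il10-/- mice and 0.02 to 0.13 in C57 mice. Of 8 genes that drive G1, all measured, 1 rose and 1 fell at 7 weeks. *E2f2*, an activator of S phase genes, had 0.06, 0.006 and 0.47 in Il10-/- mice and −0.73, −0.71, −0.39 and −0.36 in C57 mice (0.72 ± 0.16 SE, adjusted P = 0.0108), all Il10-/- mice being higher. *Ccnd2* (cyclin D2) had −0.03, −0.30 and −0.46 in Il10-/- mice and 0.57, 0.33, 0.38 and 0.84 in C57 mice (−0.79 ± 0.15 SE, adjusted P = 0.00416), all Il10-/- mice being lower, so that *Ccnd1* and *Ccnd2* had opposite differences at 7 weeks. At 12 weeks none of the 8 was called.

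Some lists of cell type markers were also apart between the genotypes, and others overlapped. At 7 weeks the colonocyte list, 10 genes of epithelium, had means of 0.37 to 0.78 in Il10-/- mice and 0.01 to 0.20 in C57 mice. In this list 3 genes were called higher and 1 lower, with differences between −0.91 (*Fabp2*) and 2.81 (*Aqp8*). The crypt stem and progenitor list had means of 0.05 to 0.17 in Il10-/- mice and 0.13 to 0.20 in C57 mice, with 0 of 9 genes called. The neutrophil list had means of 0.22 to 0.55 in Il10-/- mice and −0.22 to −0.13 in C57 mice, with 2 of 10 genes called higher, up to 2.00 (*S100a9*). The T cell list had 0 of 8 called and the B and plasma cell list 0 of 9, and the means of both overlapped. The goblet cell list overlapped too, with 0.52 to 0.71 in Il10-/- mice and 0.52 to 0.78 in C57 mice. So did the macrophage list, with −0.01 to 0.26 in Il10-/- mice and −0.28 to 0.07 in C57 mice. The endothelium list was apart and lower in Il10-/- mice, with means of −0.44 to −0.35 against −0.25 to −0.23 in C57 mice. All 8 of its genes had a negative difference. Smooth muscle genes had means of 0.28 to 0.51 in Il10-/- mice and 0.45 to 0.61 in C57 mice, with 7 of 8 differences negative. Fibroblast genes had means of −0.69 to −0.44 in Il10-/- mice and −0.50 to −0.21 in C57 mice, with all 8 negative. In these 3 lists no gene was called, while over all genes 1.4% were called higher at 7 weeks and 1.01% lower. The part of these marker lists in the mitosis result was not tested. At 12 weeks the immune lists were higher in Il10-/- mice. Neutrophil means were 0.33 to 0.99 in Il10-/- mice and −0.15 to 0.03 in C57 mice. Macrophage means were 0.39 to 0.53 in Il10-/- mice and −0.32 to 0.05 in C57 mice. B and plasma cell means were 0.43 to 0.61 in Il10-/- mice and −0.11 to 0.12 in C57 mice. T cell means were 0.11 to 0.20 in Il10-/- mice and −0.13 to −0.03 in C57 mice. The crypt stem and progenitor list, which overlapped at 7 weeks, was apart at 12 weeks. Its means were 0.15 to 0.20 in Il10-/- mice and 0.05 to 0.11 in C57 mice. The goblet cell list overlapped at 12 weeks, with 0.45 to 0.66 in Il10-/- mice and 0.46 to 0.82 in C57 mice. The colonocyte list had the opposite order from 7 weeks, with means of −0.05 to 0.36 in Il10-/- mice and 0.46 to 0.93 in C57 mice. At 12 weeks 3 of its 10 genes were called lower and 0 higher, against 1.02% of all genes lower and 1.5% higher. Mouse 95, the lowest for mitosis genes, had the lowest neutrophil mean of its group, 0.33, and the highest smooth muscle mean, 0.44, against −0.15 to 0.03 in mice 92, 94 and 96. It also had the highest T cell mean, 0.20, against 0.11 to 0.14 in those mice, and the highest colonocyte mean, 0.36, against −0.05 to 0.13. Its macrophage mean, 0.43, and its B and plasma cell mean, 0.59, lay within the range of those mice. Whether the makeup of that piece of colon played a part was not tested.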

How the data were processed

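RNA of the colon of 15 mice was labelled with Cy3 and hybridised to Agilent arrays against a pooled reference labelled with Cy5. The deposited values are log2 ratios of colon over reference, which the authors made from spot intensities by loess normalisation, with no background subtracted, and which were not normalised again. Genotype, age and mouse number were taken from the sample titles, because the strain and age fields do not vary between arrays. A gene value was the mean of the features listing that gene alone with values on at least 2 arrays of each group (32016 features, 19076 genes). Genes were fitted in limma 3.58.1 (R 4.3.3), with a mean for each of the 4 groups, 11 residual degrees of freedom and eBayes, and were called at a fold of 1.5 and a Benjamini-Hochberg adjusted P under 0.05 over all genes. The fit was tested on simulated data in which genes varied independently. The mitosis genes here differed between mice in a shared way, which that test did not cover. The titles give mice as separate animals, and the number of arrays limits the precision. The members and lists were chosen with earlier results of these data known. Every member may be named. Those called, or with genotypes apart at an age, were given by mouse. Lists of other genes were given by counts and up to 4 called genes, and some inhibitors of the cycle were named besides. RefSeq promoter windows were searched in Python 3.11.15 with pandas 2.3.3, and figures drawn with matplotlib 3.10.9. Alternatives covered normalisation, features, fit, thresholds and each mouse left out.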

Additional observations from a re-analysis of the deposited data

Results flagged for a closer look

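In groups of 4 mice, 1 mouse lay far from the other 3 in 7 of 168 groups of values, by Dixon's test at the 95% level, which flags about 1 in 20 groups by chance. In C57 mice at 7 weeks, *Cdca8* was 0.11 in mouse 46, against −0.13 in the other 3, and *Rrm2* was −2.73 in mouse 44, against −2.47 to −2.43. In C57 mice at 12 weeks, *Nek2* was 0.44 in mouse 64, against 0.05 to 0.10, and *Cenpf* was 0.26 in the same mouse, against 0.01 to 0.04. *Ccnd1* was 0.34 in mouse 63, against −0.18 to −0.11, and this mouse alone brings the C57 range of *Ccnd1* at 12 weeks up to the lowest Il10-/- mouse. *Tyms* was 0.64 in mouse 63, against 0.41 to 0.43, and *E2f1* was −0.046 in mouse 65, against 0.10 to 0.12.

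A pair of inhibitors of the cycle had a genotype difference that changed between the ages by the interaction test in limma. *Cdkn1a* was higher in Il10-/- mice at 7 weeks (0.55 ± 0.11 SE, adjusted P = 0.00385) and not at 12 weeks (−0.09 ± 0.10 SE, adjusted P = 0.644), with an interaction of −0.64 ± 0.14 (SE, adjusted P = 0.0296). *Cdkn1c* (p57), an inhibitor of cyclin-dependent kinases, had −2.10, −1.80 and −1.81 in Il10-/- mice and −1.25, −1.18, −1.47 and −1.56 in C57 mice at 7 weeks. At 12 weeks it had −1.86, −1.56, −1.38 and −1.48 in Il10-/- mice and −2.08, −1.70, −1.64 and −1.78 in C57 mice, with an interaction of 0.76 ± 0.18 (SE, adjusted P = 0.0373).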

How the results depend on the processing

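Of 29 alternatives tried, 15 left out a mouse, and none reversed the sign of a difference of a gene that was called in any of them. The count of genes called at 7 weeks was 10, all higher. It was 20 with no fold threshold, against 4.12% of all genes. It was 2 with a fold of 2 (*Plk1* and *Birc5*) and 18 with the most variable feature of each gene. When a mouse was left out it was 3 to 13 (3 without mouse 75, 4 without mouse 78, 6 without mouse 43). With the RefSeq transcript features alone, chosen after seeing the data, it was 14. Except for the main setting and no fold threshold, counts here stand without the share of all genes called under the same setting. At 12 weeks the count was 2 with no fold threshold (*Ccnd1* and *Bub1b*), 0 with a fold of 2 and 0 to 1 when a mouse was left out, being 0 without mouse 92, when *Ccnd1* fell just short of the fold threshold. The interaction had 0 calls, and 0 to 2 when a mouse was left out, with *Plk1* and *Ccna2* lower without mouse 92. Scale normalisation between arrays gave 1 call, *Rrm2*, higher at 12 than at 7 weeks in C57 mice. The median difference of the 51 genes was 0.32 at 7 weeks (0.29 to 0.40 without each mouse) and 0.08 at 12 weeks (0.02 to 0.18), and it kept its sign and stayed within the spread between mice in every alternative for all 5 comparisons. The interaction was not fitted on only the groups compared, since it needs all of them. No paired analysis was possible because the groups share no mouse numbers. Intensities were not used, so that genes near background cannot be set aside, and a difference under a fold of 1.5 is not called whatever its P.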
